A study of Mus musculus with 9 samples.

Results

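The genes described here are 10 secreted or membrane-bound immune signals of stromal cells: the chemokines Cxcl1, Cxcl5, Ccl2, Ccl7, Cxcl16 and Cx3cl1, the interleukin 6 (IL-6) family cytokines Il6, Lif and Il11, and the growth factor Csf1. They were taken by symbol, 1 line each, from a table of 55453 lines of read counts, and 9 of the 10 passed the filter on low counts. The list was chosen by topic, with the fold changes and tests of these libraries in all 3 comparisons already known, so counts over its members are a description and support nothing further. ST2 cells, a stromal line from mouse bone marrow with the label WT, were sequenced as RNA in 3 groups of 3 libraries. The fed 24 h group was cultured for 24 h and the fed 3 h group for 3 h with human blood neutrophils at 10 neutrophils per ST2 cell, and the unfed group was cultured without them and labelled 24 h. The neutrophils were end-stage cells kept frozen for 18 h or longer and then labelled with eFluor670 dye at 20 µM, and the fed cells were those sorted for a dye signal of at least a whole neutrophil. Feeding and selection for uptake therefore differ together and cannot be told apart. No unfed group at 3 h was analysed here, so the 3 h comparison is not matched in time, and the 3 comparisons share libraries. In fed 3 h against unfed cells, feeding and time in culture differ together and cannot be told apart. A gene said to rise or fall at 3 h or at 24 h was higher or lower than in the unfed cells labelled 24 h. The labels number the replicates without saying that they were separate cultures, so the p-values reflect the spread among libraries, which may be technical.

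Chemokines are small proteins that draw white blood cells along a gradient by binding receptors on those cells. Mouse CXCL1 and CXCL5 bind CXCR2 on neutrophils, CCL2 and CCL7 bind CCR2 on monocytes, CXCL16 binds CXCR6 and CX3CL1 binds CX3CR1. CXCL16 and CX3CL1 are made as membrane proteins and are cut free by the proteases ADAM10 and ADAM17. IL-6, LIF and IL-11 each use a receptor of their own together with the shared chain gp130, encoded by Il6st, and signal through JAK kinases and the transcription factor STAT3. CSF1 keeps macrophages and osteoclast precursors alive through CSF1R, and stromal cells of bone marrow are a known source of it.

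Total counts ran from 44442664 to 55971275 per library. The stromal markers fitted the label of the line: 14 genes headed by Col1a1 summed to 32865 to 34604 CPM (counts per 1000000 counts of the library, after scaling) in fed 24 h, 26282 to 26950 CPM in fed 3 h and 29821 to 32106 CPM in unfed libraries, with Thy1 at 0 in the fed 24 h and unfed groups. Of 20 mouse neutrophil markers 9, 10 and 12 were at 0 in the fed 24 h, fed 3 h and unfed groups, S100a9 and Ngp in all of them. Their sums were 4.28 to 5.32, 1.03 to 1.72 and 3.04 to 3.88 CPM in the same order, mostly Camp. The fed neutrophils were human, so these mouse markers do not measure RNA carried over from them. Whether reads of human RNA were counted on mouse genes was not tested, and this holds for every gene below. The 15 macrophage markers summed to 24.9 to 28.3, 28.0 to 29.1 and 23.4 to 25.4 CPM, mostly Cd14, and Adgre1, C1qa, C1qb, C1qc and Tyrobp were at 0 in each group. The 10 endothelial markers summed to at most 0.678 CPM in any library. The part of these markers in the results was not tested.

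**Figure D1:**
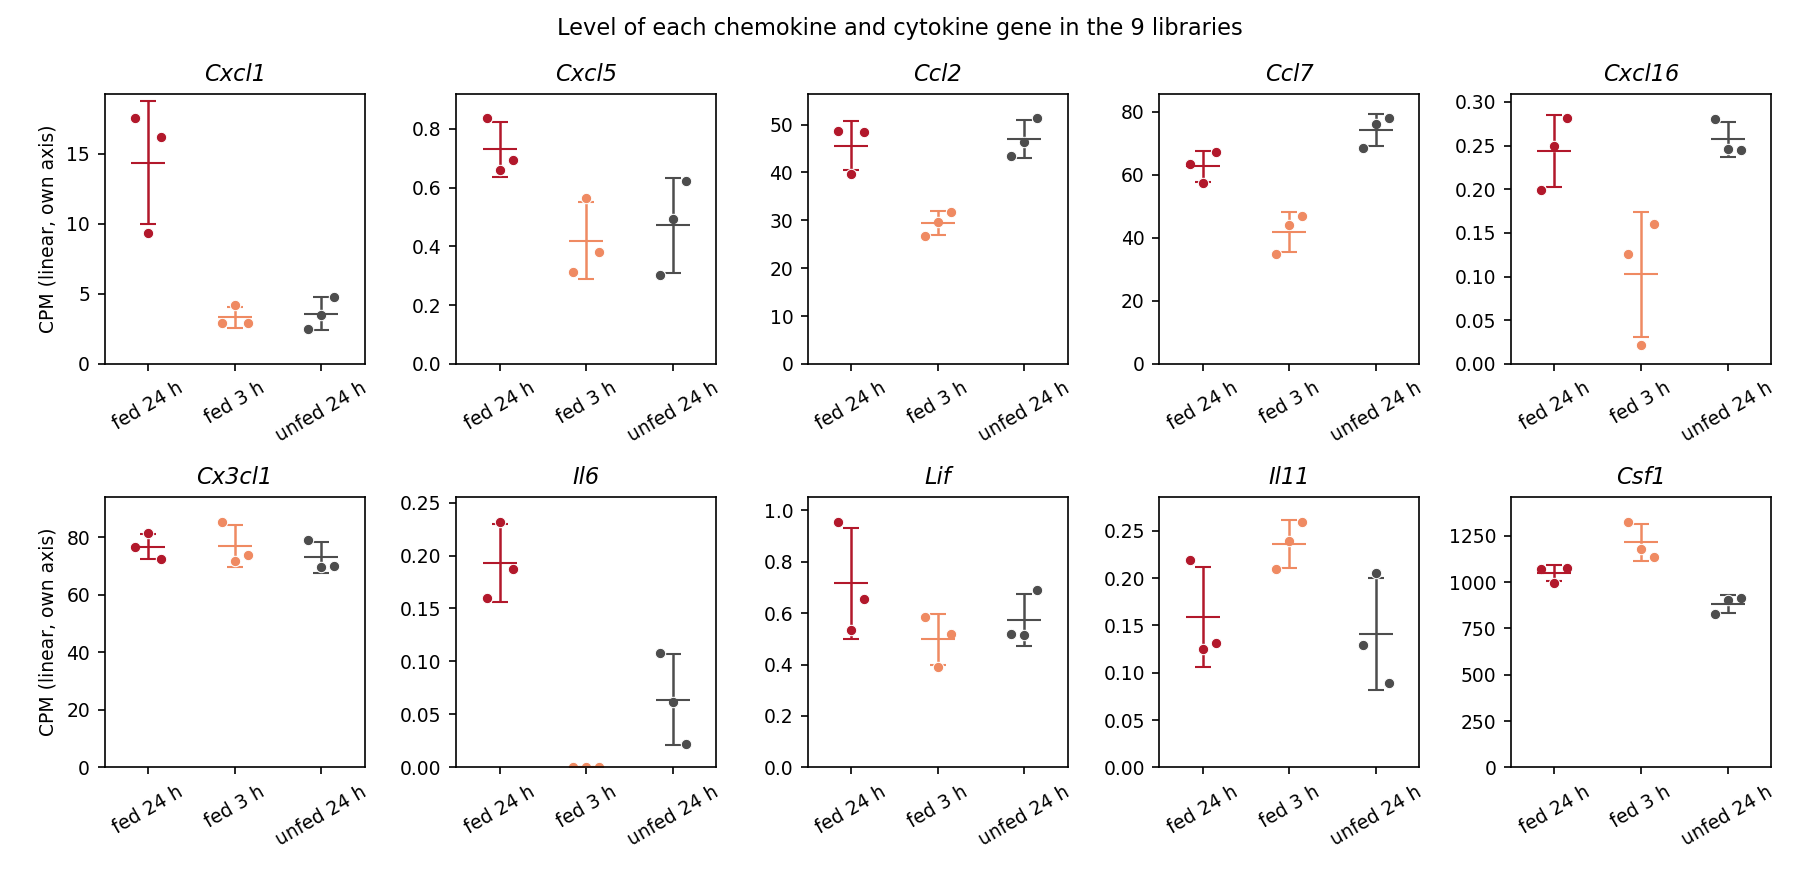
Level of each of the 10 genes in each library, in CPM on linear axes that start at 0 and differ between panels. Points are the 3 libraries of fed 24 h, fed 3 h and unfed cells, and bars are their mean ± SD. Cxcl1 is high in fed 24 h cells alone, Ccl2 and Ccl7 are low at 3 h, and Csf1 is lowest in unfed cells.

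The genes spanned a wide range of levels. Per kilobase of annotated exon, Csf1 was highest, at 199 ± 8.23, 230 ± 18.9 and 167 ± 9.31 CPM per kb in fed 24 h, fed 3 h and unfed cells (SD, n = 3 each). Ccl7 came next, at 78.2 ± 6.06, 52.3 ± 7.91 and 92.6 ± 6.29 CPM per kb, and then Ccl2, at 40.1 ± 4.49, 25.8 ± 2.20 and 41.3 ± 3.50 CPM per kb. Cx3cl1 followed at 19.5 ± 1.14, 19.6 ± 1.88 and 18.6 ± 1.37 CPM per kb. These 4 genes, followed by Cxcl1, Cxcl5 and Lif, kept this order in each group, with no overlap between neighbours down to Lif in any group. Cxcl1 lay at 7.66 ± 2.35, 1.78 ± 0.398 and 1.91 ± 0.614 CPM per kb. Below it, Cxcl5 and Lif were between 0.115 and 0.392 CPM per kb in the group means, and Cxcl16, Il6 and Il11 at or below 0.113 CPM per kb. In fed 24 h cells the last 3 overlapped each other, in fed 3 h cells Lif overlapped Il11, and in unfed cells Il11 overlapped both Cxcl16 and Il6. The lengths count every annotated exon, also of isoforms that these cells may not use.

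Genes were tested in a single fit of all 9 libraries with edgeR's quasi-likelihood test, and a gene was called at a Benjamini-Hochberg adjusted p under 0.05 over 13568 genes. In fed 24 h against unfed cells, 3 of the 9 tested genes were called, where 30.8% of all tested genes were. Cxcl1 and Csf1 were higher, where the share of all genes was 14.9%, and Ccl7 was lower, where it was 15.9%. The groups did not overlap in 4 of the 9 genes, against 43.2% of all genes. In fed 3 h against unfed cells, 4 of the 9 were called, where 50.6% of all genes were. Csf1 was higher, as were 25.1% of all genes, and Ccl2, Ccl7 and Cxcl16 were lower, as were 25.5%. The groups did not overlap in 5 of the 9 genes, against 58.2% of all genes. In fed 24 h against fed 3 h cells, 6 of the 9 were called, where 60.9% of all genes were. Cxcl1, Cxcl5, Ccl2, Ccl7 and Cxcl16 were higher, as were 30.8% of all genes, and Csf1 was lower, as were 30.2%. The groups did not overlap in 6 of the 9 genes, against 65.9% of all genes. The median log2 fold changes of the 9 genes were 0.14, −0.17 and 0.58 in these comparisons, beside −0.00126, −0.0085 and −0.0017 over all tested genes. Lif, Il11 and Cx3cl1 were called in none of the comparisons.

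**Figure D2:**
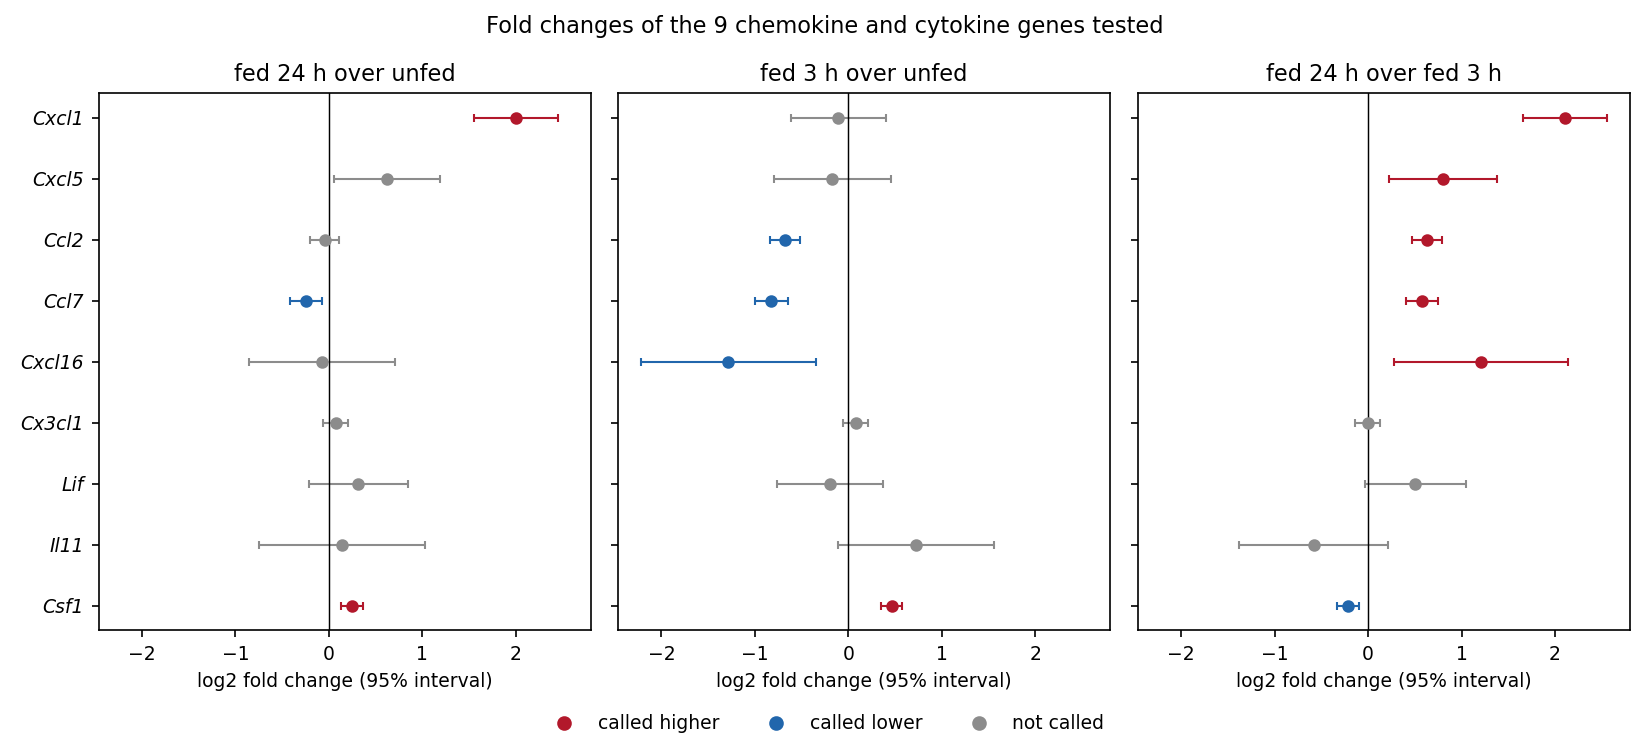
Log2 fold change of the 9 tested genes in each comparison, with bars for the 95% interval. Red points are called higher, blue points called lower (adjusted p under 0.05) and grey points not called. Cxcl1 stands at 2.00 and 2.11 in the 2 comparisons of fed 24 h cells, whereas the interval of Cx3cl1 includes 0 in each comparison.

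Cxcl1, the ligand that draws mouse neutrophils through CXCR2, was the member with the largest rise at 24 h. It lies on chromosome 5 (GRCm38, 90891241 to 90893115, + strand). It had 17.5, 9.34 and 16.2 CPM in the fed 24 h libraries, 2.91, 4.20 and 2.90 CPM in the fed 3 h libraries and 2.48, 3.51 and 4.78 CPM in the unfed libraries. Every fed 24 h library lay above every library of the other groups, which overlapped each other. The log2 fold change was 2.00 in fed 24 h against unfed cells (SE 0.230, edgeR adjusted p = 3.24e-05) and 2.11 in fed 24 h against fed 3 h cells (SE 0.231, edgeR adjusted p = 1.12e-06). By fold change it ranked 10 from the top of 13568 genes in the first of these. Both calls held in all 16 alternatives, with values of 1.79 to 2.26 and 1.94 to 2.34. In fed 3 h against unfed cells it was −0.11 (SE 0.258, adjusted p = 0.754). In bulk RNA, a change in the number of cells that express a gene and a change in RNA per cell cannot be told apart. Cxcl1 was lowest in fed 24 h replicate 2, which among these 3 libraries also had the lowest share of counts in Gm42418 and Gm26917, genes to which ribosomal RNA reads map, 0.201% against 0.343% and 0.350% in replicates 1 and 3. That share was 0.0927% to 0.249% in fed 3 h and 0.0904% to 0.115% in unfed libraries. The share of counts in mitochondrial genes was 1.78% to 2.22% in fed 24 h, 1.12% to 1.58% in fed 3 h and 1.48% to 1.61% in unfed libraries, and was highest in fed 24 h replicate 2. The part of these shares in the Cxcl1 result was not tested.

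Cxcl5, also a CXCR2 ligand, lies 129616 bases before Cxcl1 on the same strand (90759360 to 90761624), with 7 annotated genes between them, among them the chemokine genes Ppbp, Pf4, Cxcl3 and Cxcl15. It was scarce, at 0.837, 0.660 and 0.694 CPM in fed 24 h libraries, 0.314, 0.565 and 0.380 CPM in fed 3 h libraries and 0.302, 0.493 and 0.622 CPM in unfed libraries. All fed 24 h libraries lay above the others. It rose in fed 24 h against fed 3 h cells by 0.80 on the log2 scale (SE 0.294, edgeR adjusted p = 0.0276), but this call ended with DESeq2 and without replicate 1 of fed 24 h or replicates 1 or 3 of fed 3 h, each left out alone (0.63 to 1.06 over the alternatives, adjusted p up to 0.114). Against unfed cells its 24 h value was 0.63 (SE 0.289, adjusted p = 0.116; 0.39 to 0.87 over the alternatives), and at 3 h it was −0.17 (SE 0.318, adjusted p = 0.679). Cxcl2, another CXCR2 ligand, had 4 counts in all fed 24 h libraries, 2 in fed 3 h and 0 in unfed libraries. Ppbp, which also encodes a CXCR2 ligand, went the other way, with 30, 97 and 25 counts in all fed 24 h, fed 3 h and unfed libraries. Its log2 fold change was 1.91 in fed 3 h against unfed cells (SE 0.382, edgeR adjusted p = 0.000646). In fed 24 h against fed 3 h cells it was −1.83 (SE 0.367, edgeR adjusted p = 0.000455). Whether the Ppbp counts include reads of human RNA from the fed neutrophils was not tested. Of Cxcr2 there were 0, 2 and 0 counts, and 0 counts in the 3 libraries of a group allow up to 3 counts.

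The 250 bases before the RefSeq start of Cxcl1, Csf1 and Il6 are shown because each holds a match to the kappaB consensus, the sequence that NF-kappaB binds. They come from RefSeq (GRCm38.p6), 5′ to 3′ on the gene's strand, with matches to the kappaB consensus and to the AP-1 sequence (TGACTCA or TGAGTCA) in capitals. The RefSeq and GENCODE starts coincide for Csf1 and Il6, whereas the window of Cxcl1 ends a few bases inside the gene as given by GENCODE.
Cxcl1 (chr5:90890995-90891244, + strand): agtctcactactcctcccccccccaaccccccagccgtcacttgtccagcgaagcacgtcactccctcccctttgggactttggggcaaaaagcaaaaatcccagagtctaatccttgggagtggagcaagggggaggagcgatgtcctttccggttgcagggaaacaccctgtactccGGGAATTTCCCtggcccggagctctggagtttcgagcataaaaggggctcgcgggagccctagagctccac
Csf1 (chr3:107760470-107760719, − strand): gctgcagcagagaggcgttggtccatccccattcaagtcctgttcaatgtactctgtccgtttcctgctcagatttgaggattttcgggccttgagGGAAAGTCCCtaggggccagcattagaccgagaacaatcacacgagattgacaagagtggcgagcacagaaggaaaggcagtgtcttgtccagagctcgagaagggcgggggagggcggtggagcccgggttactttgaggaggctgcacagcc
Il6 (chr5:30012864-30013113, + strand): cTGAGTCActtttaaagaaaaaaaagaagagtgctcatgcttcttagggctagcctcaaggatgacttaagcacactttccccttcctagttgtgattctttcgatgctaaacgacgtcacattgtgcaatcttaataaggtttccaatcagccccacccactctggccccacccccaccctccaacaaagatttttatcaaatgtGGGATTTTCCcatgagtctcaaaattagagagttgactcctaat
Both strands were searched for the kappaB consensus, which 3.90% of the 32851 windows in that table hold, and for the AP-1 sequence, which 4.46% hold. In Cxcl1 the match on one strand, 71 to 62 bases before the start, overlaps that on the other, 70 to 61 bases before it. The Csf1 match lies 154 to 145 bases before the start and the Il6 match 44 to 35 bases before it. Il6, Lif and 1 of 2 windows of Il11 hold a single place that matches AP-1, whose forms on both strands coincide. TGACG, on either strand, is in Cxcl1 and Il6 and in 17.8% of windows, TATAAA, on the gene's strand, is in Cx3cl1 and in 7.59%, and the CArG box, in 1.47%, is in none of the members' windows. RefSeq windows matched 6 of the 10 genes, and Cxcl5, Ccl2, Ccl7 and Cxcl16 are named only. A match is a description of the letters and no evidence of binding. Of the 3 genes shown, Cxcl1 rose at 24 h, Csf1 rose at both times and Il6 was not tested.

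Ccl2 and Ccl7, the CCR2 ligands that draw monocytes, are neighbours on chromosome 11 (82035571 to 82037453 and 82045712 to 82047525, both on the + strand), 8258 bases apart with 0 genes between them. Both were lower in fed 3 h cells than in unfed cells. Ccl2 had 48.6, 39.7 and 48.5 CPM in fed 24 h libraries, 26.8, 29.7 and 31.7 CPM in fed 3 h libraries and 43.5, 46.3 and 51.4 CPM in unfed libraries. The fed 3 h libraries lay below all others, and the fed 24 h and unfed libraries overlapped. The log2 fold change was −0.68 in fed 3 h against unfed cells (SE 0.0833, edgeR adjusted p = 7e-06), 0.63 in fed 24 h against fed 3 h cells (SE 0.0830, edgeR adjusted p = 7.36e-06) and −0.05 in fed 24 h against unfed cells (SE 0.0810, adjusted p = 0.709). Ccl7 had 63.3, 57.4 and 67.1 CPM in fed 24 h libraries, 34.8, 43.9 and 47.0 CPM in fed 3 h libraries and 68.4, 76.1 and 77.9 CPM in unfed libraries. Its groups did not overlap in any comparison, with fed 3 h lowest and unfed highest. Ccl7 changed by −0.82 at 3 h (SE 0.0886, edgeR adjusted p = 1.85e-06), and it was higher at 24 h than at 3 h by 0.58 (SE 0.0885, edgeR adjusted p = 3.47e-05). At 24 h it fell by 0.24 against unfed cells (SE 0.0866, edgeR adjusted p = 0.0430), a call that ended without fed 24 h replicate 1 or 2 or unfed replicate 2 or 3 (−0.30 to −0.19 over the alternatives, adjusted p up to 0.178). Ccl2 overlaps Gm17268 on the other strand, which had 0 counts in every library. Ccr2 also had 0 counts in every library.

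Cxcl16 and Cx3cl1, the chemokines anchored in the membrane, differed in level and pattern. Cxcl16, which draws T cells through CXCR6 (chromosome 11, 70453983 to 70459984, − strand), had 0.199, 0.250 and 0.281 CPM in fed 24 h libraries, 0.126, 0.0217 and 0.160 CPM in fed 3 h libraries and 0.280, 0.247 and 0.244 CPM in unfed libraries. These are 10, 14 and 15 counts, 6, 1 and 8 counts and 13, 12 and 11 counts. The fed 3 h libraries were the lowest, and fed 24 h and unfed libraries overlapped. Its log2 fold change was −1.28 in fed 3 h against unfed cells (SE 0.480, edgeR adjusted p = 0.0354) and 1.21 in fed 24 h against fed 3 h cells (SE 0.474, edgeR adjusted p = 0.0370). The first call held in 7 and the second in 9 of 15 alternatives. The first ended with DESeq2, with no filter, in the fit of 6 libraries and without replicate 1 or 2 of fed 3 h or any single unfed replicate (−1.75 to −0.83 over the alternatives, adjusted p up to 0.137). The second ended with DESeq2, with no filter and without replicate 2 or 3 of fed 24 h or replicate 1 or 2 of fed 3 h (0.76 to 1.68, adjusted p up to 0.152). At 24 h the value against unfed cells was −0.07 (SE 0.398, adjusted p = 0.911). Cxcl16 overlaps Zmynd15 on the other strand, with 2 to 3 counts in fed 24 h libraries and 0 in the others, and reads of the pair may not be separable. Cxcr6 had 10, 38 and 9 counts in all fed 24 h, fed 3 h and unfed libraries.

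Cx3cl1, which binds CX3CR1 on monocytes and microglia (chromosome 8, 94772009 to 94782427, + strand), had 76.6, 81.4 and 72.5 CPM in fed 24 h libraries, 85.5, 71.8 and 73.9 CPM in fed 3 h libraries and 79.3, 69.6 and 70.2 CPM in unfed libraries. The groups overlapped in each comparison. The log2 fold change was 0.07 in fed 24 h against unfed cells (95% interval −0.06 to 0.21, adjusted p = 0.446), 0.08 in fed 3 h against unfed cells (−0.06 to 0.21, adjusted p = 0.361) and −0.01 in fed 24 h against fed 3 h cells (−0.14 to 0.13, adjusted p = 0.952). These intervals bound the change on this scale but do not show equal levels. Cx3cr1 had 0, 2 and 3 counts in all fed 24 h, fed 3 h and unfed libraries.

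Proteases that cut these chemokines, with their partners and inhibitors, were a list of 13 genes that were all tested. Counts of this and the following lists stand beside 14.9% higher and 15.9% lower of all tested genes in fed 24 h against unfed cells, 25.1% and 25.5% in fed 3 h against unfed cells, and 30.8% and 30.2% in fed 24 h against fed 3 h cells. As so many genes were called, these counts are descriptions and nothing particular to a list is read from them. Of them 3 rose and 1 fell in fed 24 h against unfed cells, 5 rose and 3 fell in fed 3 h against unfed cells, and 6 rose and 4 fell in fed 24 h against fed 3 h cells. Their median log2 fold changes were 0.01, 0.05 and 0.06. Adam10 was at 0.08 in fed 24 h and −0.09 in fed 3 h against unfed cells, not called. Adam17 fell by 0.16 at 3 h (SE 0.0407, edgeR adjusted p = 0.00377) and was at 0.02 at 24 h (SE 0.0405, adjusted p = 0.771). Timp3, an inhibitor of ADAM17 and ADAM10, averaged 103 ± 4.11 CPM in fed 24 h, 427 ± 54.6 CPM in fed 3 h and 122 ± 9.39 CPM in unfed cells. It rose by 1.81 on the log2 scale at 3 h (SE 0.0768, edgeR adjusted p = 1.06e-10) and was at −0.24 at 24 h (SE 0.0760, adjusted p = 0.0255), a call that ended without fed 24 h replicate 1 or unfed replicate 2 or 3 (−0.30 to −0.20). Adam9, a related protease, rose at 24 h by 0.37 (SE 0.0519, edgeR adjusted p = 0.000144).

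Among the IL-6 family cytokines, Il6 (chromosome 5, 30013114 to 30019981, + strand), Lif (chromosome 11, 4257557 to 4272514, + strand) and Il11 (chromosome 7, 4772373 to 4782859, − strand) were scarce, Il6 and Il11 with at most 13 counts in any library. Il6, an inflammatory cytokine that drives the acute phase response, had 8, 13 and 10 counts in fed 24 h libraries, 0, 0 and 0 in fed 3 h libraries and 5, 3 and 1 in unfed libraries. All fed 24 h libraries lay above all others, and the fed 3 h libraries were all at 0. Summed, these are 31, 0 and 9 counts, with 95% Poisson intervals of 21.1 to 44, 0 to 3.69 and 4.12 to 17.1 counts, which cover counting error only. The fed 24 h to unfed ratio of CPM was 3.03 (95% counting interval 1.41 to 7.22). Against fed 3 h cells, with a floor of 3 counts over the group and the other group's counts taken as they are, Il6 was at least 9.31-fold higher in fed 24 h and at least 3.08-fold higher in unfed cells. These bounds leave out the counting error of the higher group, and the Poisson limits of the unfed and fed 3 h counts, 4.12 and 3.69, lie close together. Il6 did not pass the filter, so it has no test in the main fit. With no filter it had an edgeR adjusted p of 0.124 in fed 24 h against unfed cells (log2 1.56). There the adjusted p was 0.00995 in fed 3 h against unfed cells and 4.8e-06 in fed 24 h against fed 3 h cells, both with the fed 3 h group at 0.

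Lif, which keeps embryonic stem cells undifferentiated and acts on osteoblasts and adipocytes, had 0.957, 0.535 and 0.657 CPM in fed 24 h libraries, 0.587, 0.391 and 0.519 CPM in fed 3 h libraries and 0.517, 0.514 and 0.689 CPM in unfed libraries. The groups overlapped. The log2 fold change was 0.32 in fed 24 h against unfed cells (SE 0.271, adjusted p = 0.409), −0.19 in fed 3 h against unfed cells (SE 0.289, adjusted p = 0.608) and 0.51 in fed 24 h against fed 3 h cells (SE 0.275, adjusted p = 0.123). Il11, which acts on bone formation and fibrosis, had 0.219, 0.125 and 0.131 CPM in fed 24 h libraries, 0.210, 0.239 and 0.260 CPM in fed 3 h libraries and 0.129, 0.205 and 0.0889 CPM in unfed libraries. Its fed 3 h libraries lay above the unfed ones but overlapped with fed 24 h. The log2 fold change was 0.14 in fed 24 h against unfed cells (SE 0.452, adjusted p = 0.846), 0.72 in fed 3 h against unfed cells (SE 0.426, adjusted p = 0.174) and −0.58 in fed 24 h against fed 3 h cells (SE 0.407, adjusted p = 0.229). Il11 rested on 4 to 13 counts and Lif on 18 to 48 counts per library.

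Their receptors were far more abundant than these ligands. Il6st, the shared chain gp130, averaged 559 ± 16.4 CPM in fed 24 h, 345 ± 3.36 CPM in fed 3 h and 558 ± 32.0 CPM in unfed cells. It fell at 3 h by 0.69 on the log2 scale (SE 0.0467, edgeR adjusted p = 1.37e-08). Il6ra, the IL-6 receptor, averaged 17.3 ± 1.08 CPM in fed 24 h, 18.5 ± 2.68 CPM in fed 3 h and 12.2 ± 0.939 CPM in unfed cells. It rose at both times, by 0.50 at 24 h (SE 0.0926, edgeR adjusted p = 0.000992) and 0.59 at 3 h (SE 0.0928, edgeR adjusted p = 7.19e-05). Lifr, the LIF receptor, rose by 0.36 at 24 h (SE 0.0567, edgeR adjusted p = 0.000324), and its value at 3 h was −0.12 (adjusted p = 0.0843), which was called only without fed 3 h replicate 2 (−0.16 to −0.10 over the alternatives). Il11ra1, the IL-11 receptor, and Osmr, the oncostatin M receptor, fell at 3 h by 0.57 and 0.47. Their values at 24 h were −0.03 and 0.08, not called. Of the 8 genes of this list, 5 were tested. At 24 h 2 rose and 0 fell, at 3 h 1 rose and 3 fell, and in fed 24 h against fed 3 h cells 4 rose and 0 fell, with medians of 0.08, −0.47 and 0.54.

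Clcf1, a further cytokine of the family, averaged 35.2 ± 3.94 CPM in fed 24 h, 60.0 ± 4.83 CPM in fed 3 h and 34.6 ± 3.36 CPM in unfed cells. It rose at 3 h by 0.79 on the log2 scale (SE 0.0830, edgeR adjusted p = 1.45e-06), and its value at 24 h was 0.02 (SE 0.0841, adjusted p = 0.858). Of 14 genes of JAK and STAT3 signalling, all tested, 6 rose and 2 fell at 24 h (median 0.15) and 2 rose and 8 fell at 3 h (median −0.25), and 9 rose and 2 fell in fed 24 h against fed 3 h cells (median 0.32), where 60.9% of all tested genes were called. Socs3, a STAT3-induced inhibitor of gp130 signalling, averaged 36.7 ± 0.773 CPM in fed 24 h, 23.9 ± 2.49 CPM in fed 3 h and 32.1 ± 2.57 CPM in unfed cells. It fell at 3 h by 0.42 (SE 0.0717, edgeR adjusted p = 0.000154). Its value at 24 h, 0.19 (SE 0.0698, edgeR adjusted p = 0.0477), lost its call without any 1 fed 24 h replicate or unfed replicate 1 or 3 (0.13 to 0.25, adjusted p up to 0.149). Pim1, a kinase induced by STAT3 and STAT5, rose by 0.42 at 24 h and by 1.05 at 3 h (SE 0.0804, edgeR adjusted p = 5.1e-08).

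Csf1, the growth factor of macrophages (chromosome 3, 107741048 to 107760469, − strand), was the most abundant of the 10 genes. It had 1073, 998 and 1074 CPM in fed 24 h libraries, 1327, 1179 and 1137 CPM in fed 3 h libraries and 826, 905 and 917 CPM in unfed libraries. No library of one group reached into another, and the order was fed 3 h, then fed 24 h, then unfed. The log2 fold change was 0.25 in fed 24 h against unfed cells (SE 0.0596, edgeR adjusted p = 0.00566), 0.46 in fed 3 h against unfed cells (SE 0.0597, edgeR adjusted p = 1.2e-05) and −0.21 in fed 24 h against fed 3 h cells (SE 0.0596, edgeR adjusted p = 0.00585). These calls held in all 16 alternatives, with values of 0.20 to 0.28, 0.40 to 0.51 and −0.26 to −0.15. Il34, the other ligand of CSF1R, averaged 12.1 ± 0.713 CPM in fed 24 h, 12.7 ± 0.157 CPM in fed 3 h and 9.91 ± 1.27 CPM in unfed cells. It rose at 3 h by 0.36 (SE 0.0844, edgeR adjusted p = 0.00209) and at 24 h by 0.28 (SE 0.0841, edgeR adjusted p = 0.0186), and the 24 h call ended without fed 24 h replicate 1 or unfed replicate 2 (0.19 to 0.38). Csf1r itself was at 0.223 ± 0.0889 CPM in fed 24 h, 0.349 ± 0.0580 CPM in fed 3 h and 0.157 ± 0.00684 CPM in unfed cells. It rose at 3 h by 1.14 (SE 0.386, edgeR adjusted p = 0.0222), a call that held in 11 of 15 alternatives. At 24 h its value was 0.48 (SE 0.412, edgeR adjusted p = 0.407).

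Of 13 colony-stimulating and growth cytokines and their receptors, 7 were tested. At 24 h 2 rose and 0 fell (median 0.28), and 0 were called without fed 24 h replicate 1 or unfed replicate 2 and 1 without fed 24 h replicate 3 or unfed replicate 3. At 3 h 4 rose and 3 fell (median 0.36), and at a filter of 1 CPM 4 in all were called. In fed 24 h against fed 3 h cells 3 rose and 0 fell, while the median was −0.08. Csf2 had 0 counts in every library and Csf3 had 1, 0 and 5 counts in all fed 24 h, fed 3 h and unfed libraries. Il7, a lymphocyte growth factor made by marrow stroma, fell at 3 h by 0.37 (SE 0.0894, edgeR adjusted p = 0.00286).

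**Figure D3:**
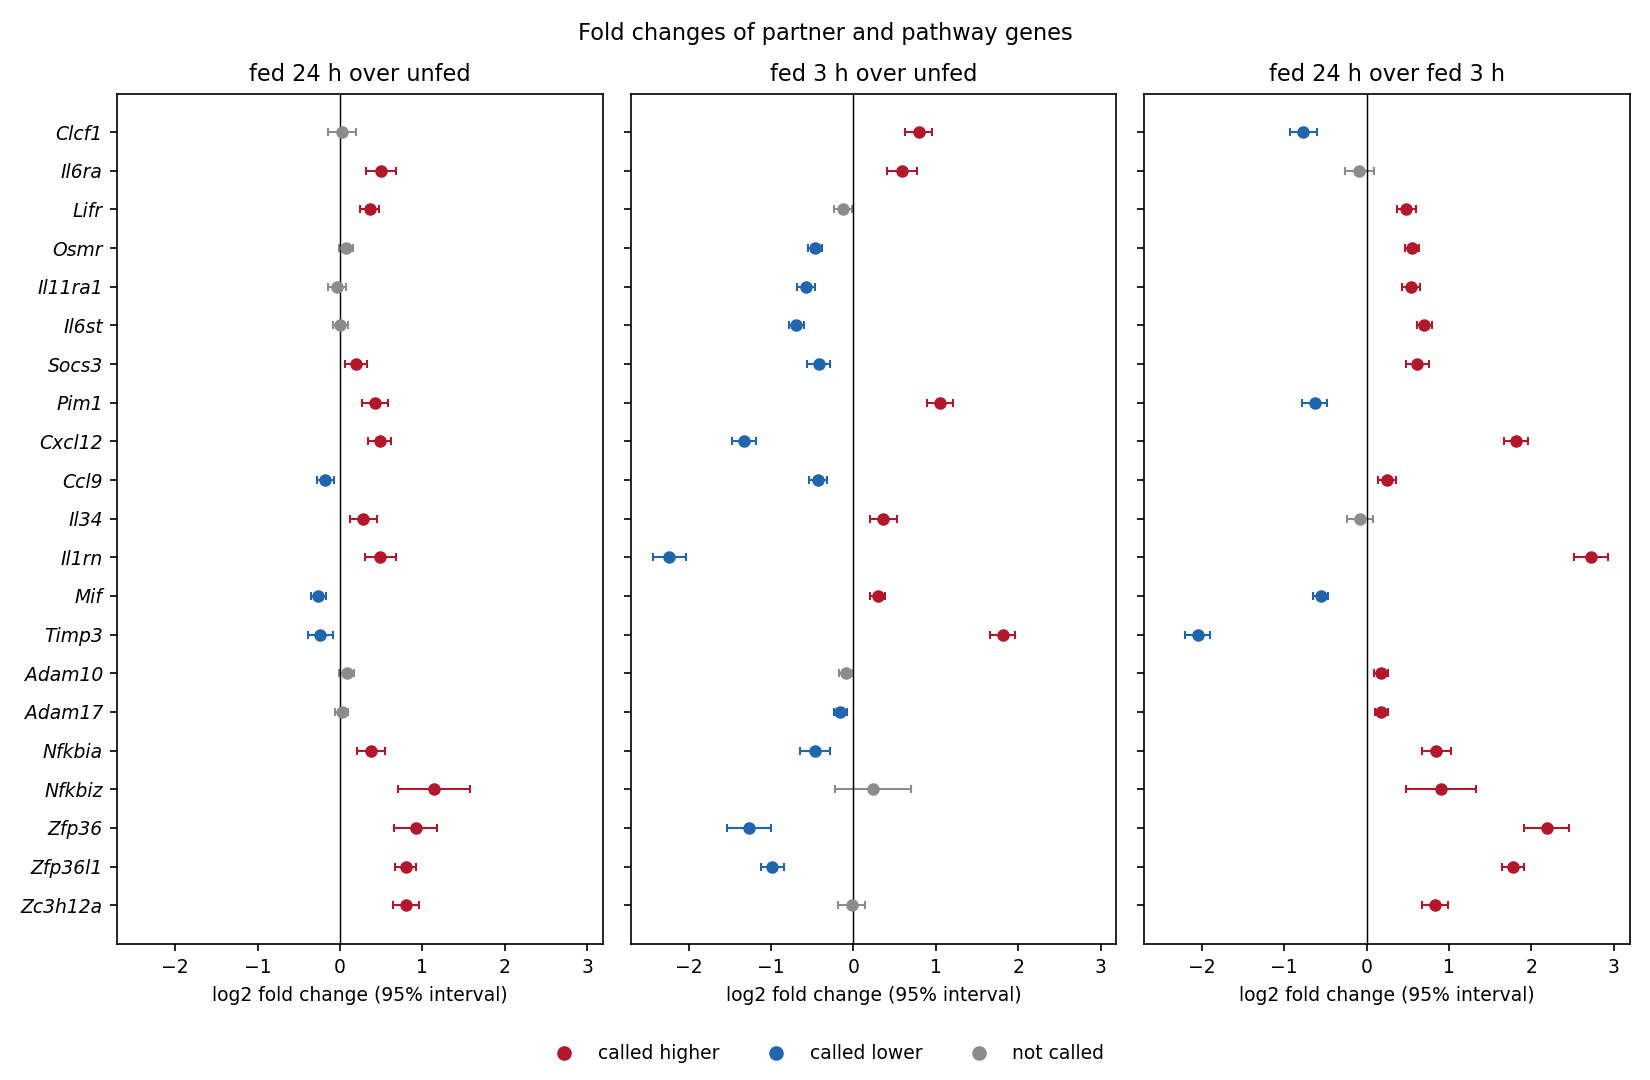
Log2 fold change with 95% interval of partner and pathway genes of the 10 members in each comparison, with red points called higher, blue called lower (adjusted p under 0.05) and grey not called. At 3 h the receptors Il6st, Osmr and Il11ra1 lie below 0, the receptor Il6ra lies above 0 and Lifr is not called. Clcf1 and Timp3 lie above 0 at 3 h, while Zfp36, Zfp36l1 and Zc3h12a lie above 0 in fed 24 h against unfed cells.

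Of 34 other chemokine ligands, 9 were tested, and Cxcl12 carried nearly all of their level. CXCL12 holds blood stem cells in the marrow through CXCR4. It averaged 7971 ± 285 CPM in fed 24 h, 2274 ± 75.3 CPM in fed 3 h and 5711 ± 783 CPM in unfed cells, and changed by 0.48 at 24 h (SE 0.0728, edgeR adjusted p = 0.000226) and −1.33 at 3 h (SE 0.0739, edgeR adjusted p = 1.54e-09). At 24 h 2 rose and 1 fell, at 3 h 3 rose and 2 fell, and in fed 24 h against fed 3 h cells 3 rose and 3 fell (medians 0.08, 0.17 and −0.15). Ccl9, a macrophage-attracting chemokine of the mouse, averaged 118, 99.2 and 133 CPM in fed 24 h, fed 3 h and unfed cells and fell at 3 h by 0.43 (SE 0.0540, edgeR adjusted p = 9.2e-06). Its value at 24 h, −0.18, lost its call without fed 24 h replicate 2 or 3 or unfed replicate 3 (−0.23 to −0.14). Of 23 chemokine receptors 2 were tested, and 12, 11 and 12 were at 0 in the fed 24 h, fed 3 h and unfed groups. The tested ones were Ackr3, a scavenging receptor of CXCL12, with 25, 49 and 30 counts in all fed 24 h, fed 3 h and unfed libraries, and Cxcr4, the receptor of CXCL12, which averaged 0.0318 ± 0.0301, 0.591 ± 0.0432 and 0.0730 ± 0.0632 CPM in the same order. At 24 h 0 of the 2 rose or fell, at 3 h 1 rose (Cxcr4) and 0 fell, and in fed 24 h against fed 3 h cells 0 rose and 2 fell. The call of Ackr3 in the last comparison (−1.11) ended with DESeq2 and without fed 24 h replicate 2 or fed 3 h replicate 1 (−1.39 to −0.88), and at 1 CPM neither receptor was tested. The summed level of the 23 was 0.357 to 0.618 CPM in fed 24 h, 1.22 to 1.57 CPM in fed 3 h and 0.474 to 0.600 CPM in unfed libraries.

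Of 22 other inflammatory cytokines, 6 were tested, and Il1rn and Mif made up most of their level. Il1rn, which encodes the antagonist of the IL-1 receptor, averaged 804 ± 20.1 CPM in fed 24 h, 122 ± 6.99 CPM in fed 3 h and 574 ± 118 CPM in unfed cells. It changed by 0.49 at 24 h (SE 0.0966, edgeR adjusted p = 0.00164) and −2.24 at 3 h (SE 0.102, edgeR adjusted p = 2.08e-10). Mif, a cytokine that binds CD74, fell at 24 h by 0.26 and rose at 3 h by 0.29 (SE 0.0475, edgeR adjusted p = 9.74e-05). Il1b had 0, 0 and 4 counts and Tnf 21, 9 and 4 counts in all fed 24 h, fed 3 h and unfed libraries. At 24 h 2 rose and 1 fell (median −0.13), at 3 h 2 rose and 2 fell (median 0.17), and in fed 24 h against fed 3 h cells 2 rose and 2 fell (median −0.46). The 3 h calls numbered 2 in all without fed 24 h replicate 3, fed 3 h replicate 2 or 3 or unfed replicate 1, and with limma-voom or in the fit of 6 libraries.

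NF-kappaB is a transcription factor known to bind promoters of inflammatory chemokines, and its inhibitors are among its own targets. Of 15 factors and feedback genes of the pathway, 14 were tested: 3 rose and 0 fell at 24 h (median −0.00133), 1 rose and 6 fell at 3 h (median −0.18), and 9 rose and 1 fell in fed 24 h against fed 3 h cells (median 0.20). Nfkbiz, a nuclear co-regulator of part of the NF-kappaB targets, averaged 12.8 ± 2.64 CPM in fed 24 h, 6.87 ± 2.47 CPM in fed 3 h and 5.81 ± 1.88 CPM in unfed cells (log2 1.14 at 24 h, SE 0.224, edgeR adjusted p = 0.00151). Nfkbia, the main inhibitor that holds NF-kappaB in the cytoplasm, averaged 29.7 ± 2.67, 16.5 ± 2.19 and 22.8 ± 2.19 CPM in the same order. It rose at 24 h by 0.38 (SE 0.0892, edgeR adjusted p = 0.00516) and fell at 3 h by 0.47 (SE 0.0931, edgeR adjusted p = 0.000596). The third rise at 24 h was that of Tnip1 (0.34), an inhibitor that works with Tnfaip3. Icam1, an adhesion gene switched on by NF-kappaB, had 1 count in all libraries of each group.

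Messengers of inflammatory cytokines are often short-lived. Proteins such as TTP, encoded by Zfp36, bind AU-rich stretches that contain ATTTA in the 3′ untranslated region and speed their decay, and others, such as HuR, encoded by Elavl1, stabilise them. The stretches shown are the 30 bases with the most ATTTA (capitals) in the 3′ untranslated region of the 3 members with the highest density, and of the member with the lowest, for contrast. They were read from GENCODE M21 transcripts (GRCm38), 5′ to 3′, with T for U.
Cxcl1 (bases 83 to 112 of the region): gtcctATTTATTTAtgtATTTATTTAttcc
Il6 (136 to 165): atttttaATTTAttgataATTTAaataagt
Il11 (40 to 69): ccagatcttATTTATTTATTTAttttggta
Cx3cl1 (293 to 322): ccagtgaacaattATTTAttggattcccag
Il6 had 6 copies, or 14.1 per kb, Cxcl1 7 or 11.8 per kb and Il11 10 or 8.38 per kb. Ccl7 had 4.60, Cxcl5 4.50, Ccl2 3.64, Lif 2.20, Csf1 1.89, Cxcl16 1.41 and Cx3cl1 0.534 per kb. Over 11830 other tested coding genes the median was 1.24 per kb, and 66.4% held at least 1 copy and 19.9% at least 5. All 10 members held at least 1 and 5 held at least 5. The longer sequence TATTTAT was in 7 members and in 28.0% of the other genes. A copy is a match of letters and no evidence of binding.

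**Figure D4:**
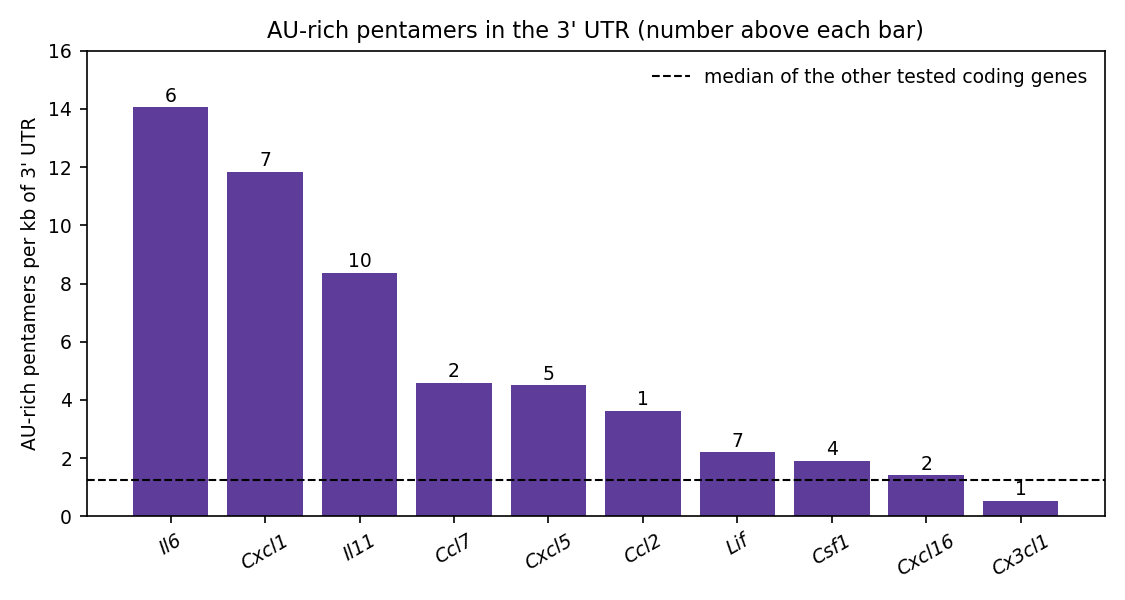
Copies of the AU-rich pentamer (ATTTA) per kb of the 3′ untranslated region of each of the 10 genes (vertical axis), ordered from high to low, with the number of copies above each bar. The dashed line is the median of the other tested coding genes, 1.24 per kb, and of the 10 bars only that of Cx3cl1, at 0.534 per kb, lies below it.

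The relation of ATTTA density to the changes was not tested. Of 14 genes that control decay of such messengers, all tested, 4 rose and 2 fell at 24 h (median −0.04), 7 rose and 4 fell at 3 h (median 0.09), and 4 rose and 7 fell in fed 24 h against fed 3 h cells (median −0.29). Zfp36 averaged 146 ± 8.41 CPM in fed 24 h, 32.2 ± 6.85 CPM in fed 3 h and 77.5 ± 17.3 CPM in unfed cells. It rose at 24 h by 0.92 (SE 0.131, edgeR adjusted p = 0.000156) and fell at 3 h by 1.27 (SE 0.139, edgeR adjusted p = 2.24e-06). Zfp36l1, its relative, rose at 24 h by 0.80 (SE 0.0654) and fell at 3 h by 0.98 (SE 0.0687). Zc3h12a, which encodes the RNase Regnase-1 that cuts Il6 messenger, averaged 18.4 ± 1.95 CPM in fed 24 h, 10.4 ± 0.526 CPM in fed 3 h and 10.6 ± 0.676 CPM in unfed cells, a rise of 0.80 at 24 h (SE 0.0806, edgeR adjusted p = 9.76e-06). Elavl1 fell at 24 h by 0.28 (SE 0.0485).

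**Figure D5:**
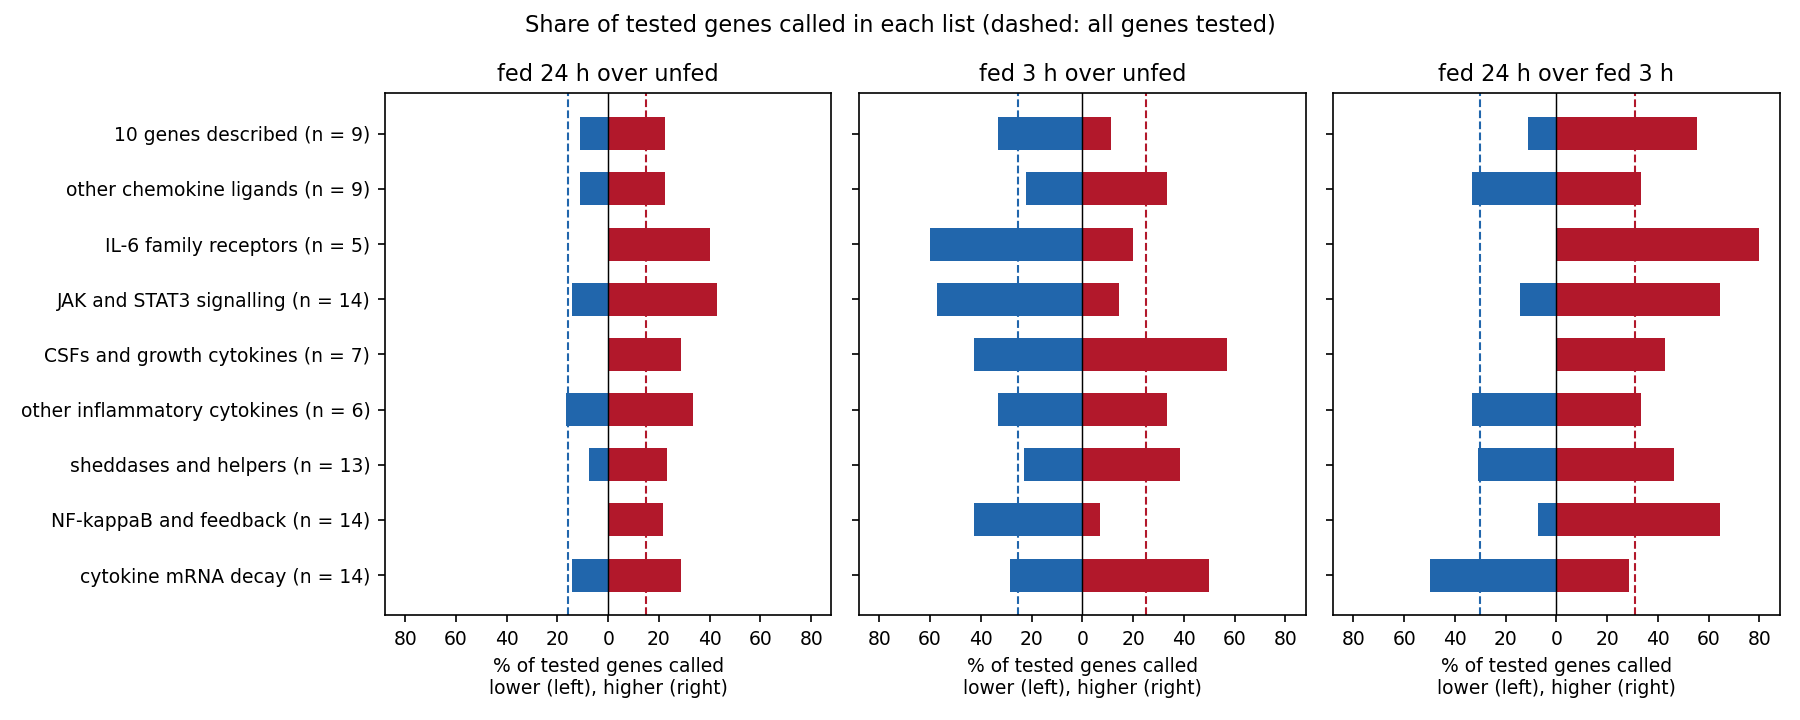
Percent of the tested genes of each list called higher (right) or lower (left) in each comparison, at an adjusted p under 0.05, with the number of tested genes in the labels and dashed lines for the share over all tested genes. At 3 h more genes are lower than higher among IL-6 family receptors (5 tested genes), JAK and STAT3 signalling and NF-kappaB factors. The same holds for the 10 genes described. Of the other lists, inflammatory cytokines have as many higher as lower and the rest have more higher.

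Genes nearest to a member were those with the most alike pair of log2 fold changes (fed 24 h against unfed and fed 3 h against unfed), by Euclidean distance over tested genes that averaged 5 CPM or more in some group, for the members called with a change of at least 1. Nearest to Cxcl1 (2.00 and −0.11) were Clec2d (1.55 and −0.08, distance 0.453), Sparcl1 (1.53 and 0.12, distance 0.523) and Nr4a1 (1.54 and −0.56, distance 0.645). Nearest to Cxcl16 (−0.07 and −1.28) were Fam43a (−0.05 and −1.36, distance 0.0803), Cyp51 (−0.03 and −1.19, distance 0.103) and Dhcr7 (−0.13 and −1.38, distance 0.106). Both values come from 9 libraries in which the unfed group is shared, and Cxcl16 rests on few counts.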

How the data were processed

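The authors deposited a table of raw read counts per mouse gene symbol, 1 column per library, neither normalized nor pooled. The submitters' processing notes name featureCounts, Subread 1.6.4, STAR 2.7.0f and MultiQC 1.7, and the builds GRCh38.p13 and GRCm38.p6, per the labels. Not given in the sources used here are the annotation, the strand setting and the handling of reads that map to several places. The labels disagree on the library kit (TruSeq Stranded mRNA, or SMART-Seq v4 with Nextera XT), so reads of genes that overlap on opposite strands may not be separable.

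From the counts, edgeR 4.0.16 in R 4.3.3 fitted the 9 libraries with the group as the only term (TMM factors, filterByExpr, quasi-likelihood F-test). Adjustment ran over 13568 genes. Of the 55453 lines, 2 repeated symbols were kept apart. CPM are counts over the library total scaled by its TMM factor. The SE is the log2 fold change divided by the root of F. Between replicates the chi-square per degree of freedom was 5.46 to 16.1 over the 9 pairs, so no library was counted as a copy of another. PCR copies could not be removed, and intervals from counts cover counting error only. The members, lists, rule for named genes and alternatives were chosen with earlier results of these data known. The rule named the members, a set of partner genes, up to 3 called genes per direction, list and comparison that averaged 5 CPM or more where they were higher, and the 3 nearest genes. Not every gene it names is described, and 1 item is not reported here. Cxcr4, Ppbp, Tnf, Il1b, Csf2 and Icam1 are given outside it, chosen after their values were seen. Annotation and coordinates come from GENCODE M21 (GRCm38). The test was run on simulated counts in which all genes shared a single spread and few genes changed. These data differ in both respects, so that run does not show how reliable the calls are here. The 16 alternatives were limma-voom (limma 3.58.1), DESeq2 1.42.0 with its Wald test, its size factors within edgeR, no filter, a filter of 1 CPM in 3 libraries, the replicate number as a block, the 6 libraries compared alone and the omission of each library.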

Additional observations from a re-analysis of the deposited data

How the results depend on the processing

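Over the 16 alternatives, genes called ran from 2914 to 4425 in fed 24 h against unfed cells, from 6034 to 6929 in fed 3 h against unfed cells and from 7580 to 8544 in fed 24 h against fed 3 h cells. Members called numbered 2 to 3, 3 to 4 and 4 to 6. With the replicate number as a block, 3911, 6669 and 8091 genes and 3, 4 and 6 members were called, so the block changed no member's call. Same-numbered libraries correlated from −0.163 to 0.0578 in their deviations from the group means and other pairs from −0.0971 to 0.104. No pairing by number was seen, but with 3 libraries per group a weak pairing could be missed. Without fed 24 h replicate 1, 1426 genes were lower at 24 h. Where a list other than the cell type markers had 0 genes called in a direction by edgeR, DESeq2 and limma-voom also called 0 there, and an unadjusted p under 0.05 gave 0, except 1 lower growth cytokine in fed 24 h against fed 3 h cells and 1 lower NF-kappaB gene at 24 h. In fed 24 h against fed 3 h cells, called chemokine receptors numbered 2, against 1 with the DESeq2 Wald test, 0 at a filter of 1 CPM and 1 to 3 without a library. In fed 3 h against unfed cells there was 1, against 2 with no filter, 0 at 1 CPM and 1 to 2 without a library. Called inflammatory cytokines at 3 h numbered 4, against 2 with limma-voom or in the 6 libraries and 2 to 3 without a library. At 1 CPM, called other chemokine ligands numbered 3 and growth cytokines 4 at 3 h, as the other called genes did not pass that filter. At 24 h, growth cytokines ran from 0 to 2 without a library. Apart from genes that a filter removed, the cause was not tested. Values that changed sign were not called in the main fit. Cx3cl1 in fed 24 h against fed 3 h cells was 3.8e-05 with no filter, 0.0029 at 1 CPM and −0.0557 to 0.0739 without a library. Without a library, at 24 h against unfed, Il11 ran from −0.15 to 0.51, Cxcl16 from −0.18 to 0.0517, Ccl2 from −0.10 to 0.0449, Il6st from −0.0252 to 0.0517 and Adam17 from −0.00916 to 0.0379. At 3 h, Cxcl1 ran from −0.31 to 0.15, Cxcl5 from −0.44 to 0.0684 and Zc3h12a from −0.0662 to 0.0268. Il6ra in fed 24 h against fed 3 h cells ran from −0.19 to 0.0156. Depth limited Il6, Il11 and Cxcl16, with at most 15 counts per library.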
